A study of Mus musculus with 4 samples.

Results

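Integrins are the main cell surface receptors for extracellular matrix, and laminins, nidogens, perlecan and agrin build the basement membrane that ensheathes heart muscle cells, capillaries and other vessel cells. The genes described here are 17 integrin alpha chains, 8 integrin beta chains, 10 laminin chains and 4 linkers (Nid1, Nid2, Hspg2 and Agrn), 39 genes in all. They were chosen by symbol, and each has 1 entry among the 55401 genes of the deposited table. The series holds poly(A) RNA sequencing of mouse heart at day 28 after surgery. The MI group (n = 2) underwent a ligation operation, which produces a myocardial infarction, and the Sham group (n = 2) underwent thoracotomy without ligation. The labels give no genotype, strain, sex or age for either group and name the tissue only as heart, so the region sampled in each library is not known. Nothing states that replicates came from separate animals, so p-values measure only how far these 4 libraries differ, and that spread may be technical.

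An integrin is a pair of 1 alpha and 1 beta chain, and the alpha chain largely sets which ligand is bound. The alpha chains fall into groups that bind collagen, laminin, proteins with an arginine-glycine-aspartate (RGD) motif, or ligands on other cells. A laminin is a trimer of 1 alpha, 1 beta and 1 gamma chain, which assembles into a sheet under the cell. Nidogens, perlecan and agrin tie that sheet to collagen IV and to the cell surface. In adult heart muscle cells, beta 1 integrins and dystroglycan hold the cell to laminin.

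Total estimated counts were 72857907 and 75979320 in MI replicates 1 and 2, and 72485370 and 66624106 in Sham replicates 1 and 2. About 4 counts stood for 1 fragment, so a count of 12 is taken as the floor of detection. All 8 cardiomyocyte markers looked at (Tnnt2 and Myh6 among them) were detected in every library, with a summed level of 12408 to 12446 FPKM in MI and 12149 to 13126 FPKM in Sham. Singly, 6 of the 8 had a log2 difference between MI and Sham below 0 (edgeR; median -0.24). On counts scaled by edgeR, 4 of the 8 were lower in MI without overlap (background 21.9% of all genes tested). Myh7 alone was higher in MI without overlap (log2 difference 0.94 ± 0.25; background 24.9%). The libraries differed in other tissue. MI replicate 1 held transcripts of lung epithelium, at 291 FPKM summed over 10 markers, against 0.43 FPKM in MI replicate 2 and 0.31 and 1.27 FPKM in the Sham libraries, where Sftpc stood at 0. Of the 5 atrial markers, Myl7 had 1.20 and 0.41 FPKM in the MI libraries and 0.46 and 1128 FPKM in the Sham libraries, and Myl4, Sln and Bmp10 were likewise high in Sham replicate 2 alone. The fifth, Nppa, which stressed ventricle also expresses, had 2632 and 1855 FPKM in MI and 151 and 3515 FPKM in Sham. The 6 adipocyte markers summed to 0.01 and 0.43 FPKM in MI and to 0.05 and 143 FPKM in Sham, so Sham replicate 2 stood apart for both tissues. The 5 neutrophil markers summed to 20.6 and 9.02 FPKM in MI and to 61.3 and 11.4 FPKM in Sham. The part of these tissues in the results below was not tested, and in bulk tissue more cells of a type and more RNA per cell cannot be told apart.

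Most genes of the basement membrane and the collagen-binding integrins stood higher in MI, while beta 1, the partner of most alpha chains, differed by less than its standard error, and Lamb3 stood lower. In edgeR's quasi-likelihood test adjusted over all 18475 genes tested, 0 of the 37 members that passed the filter on low counts were called (smallest adjusted p = 0.225), as were 0 of all genes (0% called). At an unadjusted p under 0.05, 13 members were higher in MI (35.1% of the 37; background 7.12% of all genes tested) and 1 was lower (2.70%; background 4.51%). DESeq2 called 5 members higher (Itga10, Itga11, Itgb5, Lamc1 and Nid1; background 2.18% of all genes tested) and 1 lower (Lamb3; background 1.26%). In TMM-scaled CPM, counts relative to a library size scaled by edgeR, the lower MI value exceeded the higher Sham value for 20 members (54.1%; background 24.9%), and the reverse held for 3 (8.11%; background 21.9%). The log2 difference was above 0 for 30 of the 37 members (background 50.2%). The median log2 difference was 0.45 over the 37 members and 0.00 over all genes tested. MI replicate 1 read higher than MI replicate 2 for 33 of the 37 members (89.2%; 50.5% of all genes tested). Without MI replicate 1, 4 members were higher and 1 lower at an unadjusted p (background 2.23% and 1.95% of all genes in that fit), and without MI replicate 2, 7 were higher and 1 lower (background 4.02% and 2.06%). Without Sham replicate 1, 13 were higher and 2 lower (background 9.67% and 6.1%), and without Sham replicate 2, 16 were higher and 3 lower (background 9.72% and 5.86%). Itgae and Lama1 did not pass the filter, with at most 12 and 4 counts in any library.

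**Figure D1:**
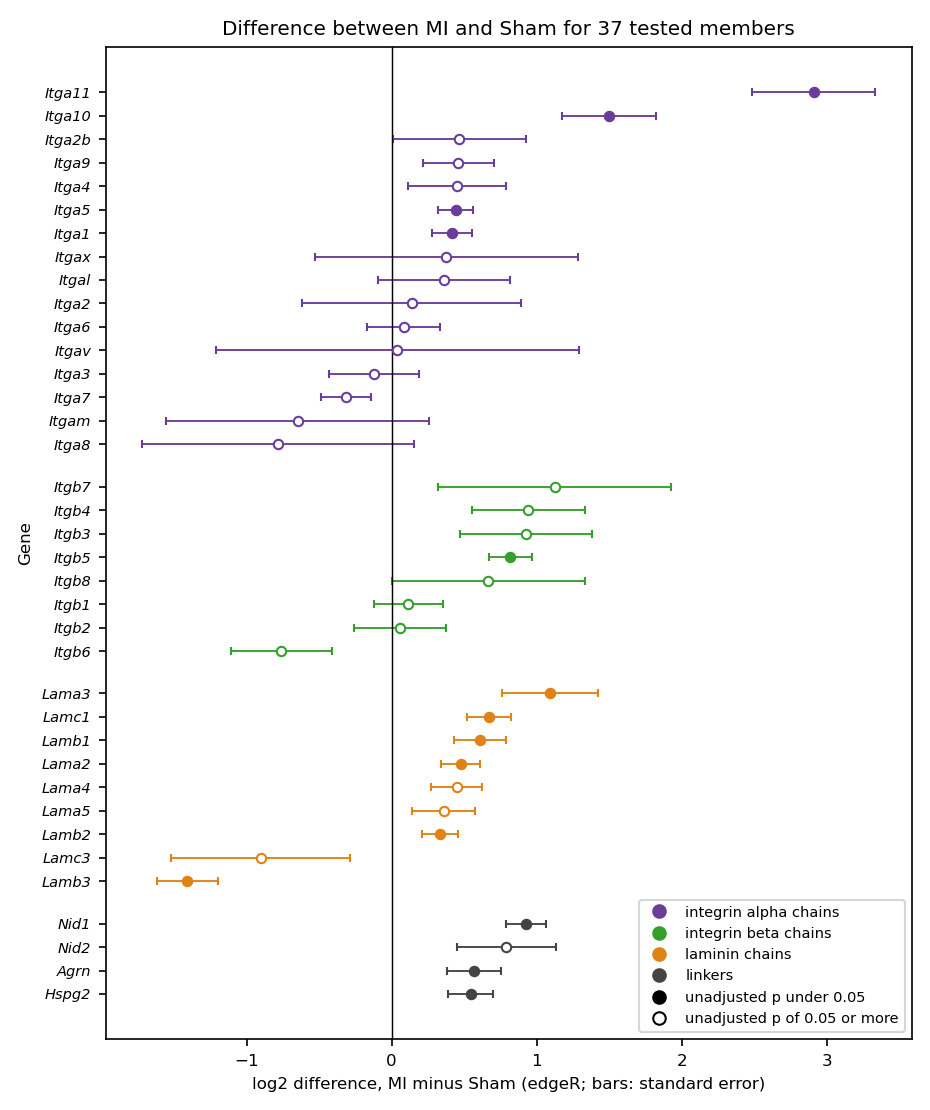
Log2 difference between MI and Sham (horizontal axis; edgeR, bars are standard errors, n = 2 per group) for the 37 members tested, grouped as integrin alpha chains, integrin beta chains, laminin chains and linkers, with filled points at an unadjusted p under 0.05. Itga11 lies farthest to the right at 2.91, all 4 linkers lie right of 0, and Lamb3 lies farthest to the left at -1.41.

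The windows before the start sites of 4 members are shown because DESeq2 called these genes, 3 of them higher in MI and Lamb3 lower, and because at most 29 bases of each window are annotated as exon. Nid1, also called, is not shown, since 51 bases of its window are exonic. Lamc1, also called, had no RefSeq window. Each window shown is the 250 bases that precede the RefSeq transcription start (GRCm38.p6), 5′ to 3′ along the gene. The Lamb3 entry of the deposited table starts upstream of both RefSeq starts, at 193207699, so the Lamb3 window lies inside its annotated span. Capitals mark a match, on either strand, to GGGCGG (the GC box bound by SP factors), TGANTCA (AP-1), CATTCC (the core of the TEAD motif) or TATAAA (the TATA box).
Itga11 (chr9:62677605-62677854, plus strand): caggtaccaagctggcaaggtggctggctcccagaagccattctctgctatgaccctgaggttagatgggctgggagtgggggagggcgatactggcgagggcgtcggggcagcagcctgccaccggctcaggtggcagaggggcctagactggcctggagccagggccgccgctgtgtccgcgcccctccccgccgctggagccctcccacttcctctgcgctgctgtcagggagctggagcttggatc
Itga10 (chr3:96645334-96645583, plus strand): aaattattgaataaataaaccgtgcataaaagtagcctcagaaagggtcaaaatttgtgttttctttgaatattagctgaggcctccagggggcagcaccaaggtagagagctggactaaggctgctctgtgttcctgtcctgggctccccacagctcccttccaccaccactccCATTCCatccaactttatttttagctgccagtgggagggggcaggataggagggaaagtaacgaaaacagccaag
Itgb5 (chr16:33829415-33829664, plus strand): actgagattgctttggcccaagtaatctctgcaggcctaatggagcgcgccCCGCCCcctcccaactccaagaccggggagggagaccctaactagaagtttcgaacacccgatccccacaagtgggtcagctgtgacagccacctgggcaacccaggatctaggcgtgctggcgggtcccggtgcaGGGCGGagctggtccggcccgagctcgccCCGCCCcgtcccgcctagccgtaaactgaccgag
Lamb3 (chr1:193301744-193301993, plus strand, the first of 2 start sites): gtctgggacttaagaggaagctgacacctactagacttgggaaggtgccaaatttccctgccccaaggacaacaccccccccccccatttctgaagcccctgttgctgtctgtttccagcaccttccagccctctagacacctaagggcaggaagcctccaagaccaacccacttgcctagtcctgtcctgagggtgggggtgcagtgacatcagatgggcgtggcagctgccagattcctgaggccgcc
The windows have little in common. That of Itga11 held 0 of the 4 motifs at 68.4% G and C, that of Itga10 held 1 TEAD core at 48% G and C, that of Itgb5 held 3 GC boxes at 65.2%, and the Lamb3 window shown held none at 58.8%. RefSeq windows of 26 of the 39 members were used (30 windows). Lama3 was not among these members, so the motif counts below leave it out. GC boxes were in 13 of the 30 windows, against 32.7% of all 32851 windows of that length, the TEAD core in 4 (12.6% of all windows), the AP-1 motif in 1 (6.75%) and the TATA box in 0 (12.4%). The AP-1 match was in the window of Itgax, and Nid1, Itgb1 and the second window of Lamb3 held the other TEAD cores.

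The collagen-binding alpha chains Itga11 and Itga10 showed the widest differences among the integrins, whereas the other collagen-binding chains, Itga1 and Itga2, did not. Itga11 (ENSMUSG00000032243, chromosome 9, 62677826 to 62783982) encodes the fibrillar collagen receptor chain of fibroblasts. It had 2.39 and 1.3 FPKM in the MI libraries, against 0.14 and 0.27 FPKM in the Sham libraries. The groups did not overlap, and the lower MI library stood above the higher Sham library. The log2 difference was 2.91 ± 0.42 (SE; edgeR adjusted p = 0.225, DESeq2 adjusted p = 1.16e-07). Its counts were 976 and 552 in MI and 58 and 103 in Sham, all above the floor. Itga10, a collagen receptor chain best known from cartilage, had 0.56 and 0.63 FPKM in MI and 0.17 and 0.20 FPKM in Sham. The log2 difference was 1.5 ± 0.33 (edgeR adjusted p = 0.301, DESeq2 adjusted p = 0.0259). Of its 5186 exon bases, 1739 are shared with Gm42957 on the same strand; the counts of both genes together were 282 and 273 in MI and 92 and 74 in Sham, again with no overlap. Itga1, the collagen IV receptor chain of muscle and vessel cells, had 3.30 and 2.54 FPKM in MI and 1.82 and 1.91 FPKM in Sham, a log2 difference of 0.42 ± 0.14 (edgeR adjusted p = 0.377). Itga2, the collagen receptor chain of platelets and epithelium, was low throughout, with 0.20 and 0.04 FPKM in MI and 0.09 and 0.10 FPKM in Sham, so that the MI libraries enclosed the Sham libraries.

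Fibroblast markers stood higher in both MI libraries, at 372 and 256 FPKM summed over 7 genes, Postn among them, against 98.9 and 151 FPKM in the Sham libraries. Pdgfra, the receptor by which cardiac fibroblasts are recognised, had 3.63 and 3.99 FPKM in MI and 2.57 and 2.77 FPKM in Sham. Per Pdgfra transcript, the Itga11 level was 0.658 and 0.326 in the MI libraries and 0.0545 and 0.0975 in the Sham libraries, as a ratio of FPKM. Both MI ratios exceeded both Sham ratios.

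Among receptors of the RGD group, Itga5 and Itgb5 stood higher in MI. Itgb5 (ENSMUSG00000022817, chromosome 16, 33829665 to 33949338) encodes the beta chain that pairs with alpha V to bind vitronectin and latent TGF-beta. It had 40.2 and 30.2 FPKM in the MI libraries and 16.9 and 17.1 FPKM in the Sham libraries. The Sham libraries lay close together and both MI libraries lay well above them. The log2 difference was 0.82 ± 0.15 (edgeR adjusted p = 0.261, DESeq2 adjusted p = 0.0014). Itga5, the fibronectin receptor chain, had 17.3 and 16.2 FPKM in MI and 10.4 and 10.8 FPKM in Sham, with a log2 difference of 0.44 ± 0.12 (edgeR adjusted p = 0.339). It was the most abundant alpha chain in MI. Itgb3, the beta chain of the platelet and endothelial vitronectin receptors, had 1.03 and 0.85 FPKM in MI and 0.56 and 0.26 FPKM in Sham (0.92 ± 0.46; edgeR adjusted p = 0.504). Itga2b, its partner in platelets, had 0.79 and 0.32 FPKM in MI and 0.30 and 0.38 FPKM in Sham. The 7 platelet markers summed to 21.1 and 10.01 FPKM in MI and 26.2 and 17.2 FPKM in Sham. Of the 7, 0 were higher in MI without overlap (background 24.9%). Only 1 was lower without overlap (background 21.9%), Pf4, with a log2 difference of -0.94 ± 0.37.

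Itgav, the alpha chain that can pair with Itgb1, Itgb3, Itgb5, Itgb6 or Itgb8, split each group. It had 1.29 and 0.17 FPKM in the MI libraries and 0.11 and 1.11 FPKM in the Sham libraries. MI replicate 1 exceeded MI replicate 2 by 6.63-fold in CPM, and Sham replicate 2 exceeded Sham replicate 1 by 9.05-fold, and the log2 difference of 0.04 ± 1.25 was far smaller than its error. Whether reads were assigned to Itgav alike in the 4 libraries cannot be seen from gene counts and was not tested. A gap of over 5-fold inside both groups was found for 50 of all genes tested (0.271%). Itga8, the nephronectin receptor chain of mesenchymal and smooth muscle cells, also split, with 0.74 and 0.44 FPKM in MI and 0.18 and 1.61 FPKM in Sham. Without Sham replicate 2, the library with atrial and adipocyte transcripts, its log2 difference of -0.78 ± 0.94 became 1.39. Itgb6, an epithelial beta chain that activates TGF-beta, had 0.44 and 0.25 FPKM in MI and 0.41 and 0.58 FPKM in Sham (-0.76 ± 0.35). Itgb8 had at most 0.17 FPKM in any library.

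**Figure D2:**
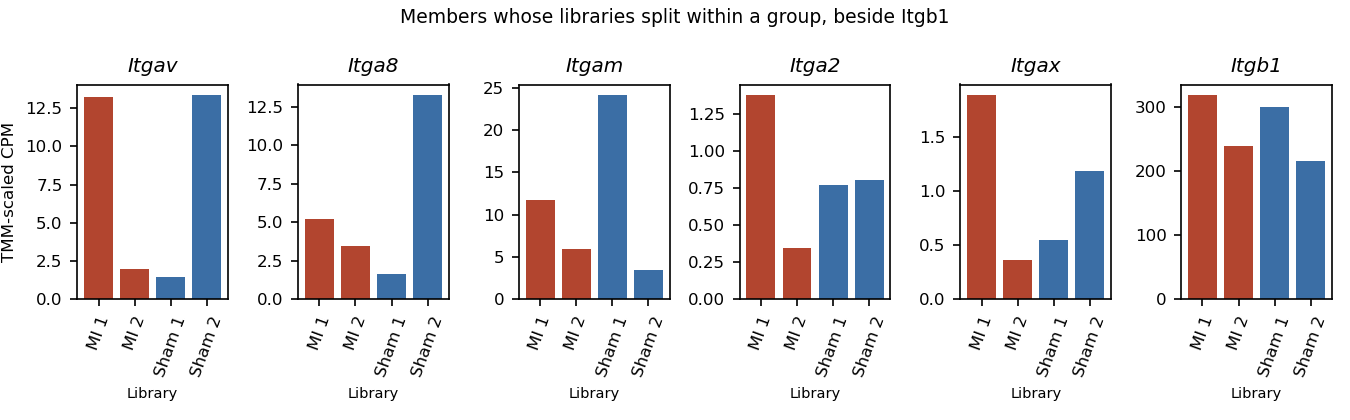
TMM-scaled CPM (vertical axes, each from 0, with its own scale) in each library for 5 members whose libraries split within a group, with Itgb1 for comparison. Itgav is high in MI replicate 1 and Sham replicate 2 (13.2 and 13.4 CPM) and low in MI replicate 2 and Sham replicate 1 (2.00 and 1.48 CPM).

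The laminin-binding chains and their common partner did not separate the groups upward. Itgb1, which pairs with most alpha chains described here, was the most abundant member, with 82.0 and 54.7 FPKM in the MI libraries and 59.5 and 47.2 FPKM in the Sham libraries. The ranges overlapped, and the log2 difference was 0.11 ± 0.24 (edgeR adjusted p = 0.883); leaving out MI replicate 1 gave -0.10, and leaving out Sham replicate 2 gave -0.11. Itga7, the laminin receptor chain of heart and skeletal muscle, had 14.4 and 11.1 FPKM in MI and 14.3 and 12.6 FPKM in Sham. On the TMM scale its groups did not overlap, at 111 and 96.3 CPM in MI against 144 and 114 CPM in Sham (log2 difference -0.31 ± 0.17; edgeR adjusted p = 0.536), whereas the FPKM overlapped. Itga6, the laminin receptor chain of endothelium, had 3.96 and 3.22 FPKM in MI and 2.12 and 3.75 FPKM in Sham, and Itga3 had 2.73 and 1.71 FPKM in MI and 1.49 and 2.67 FPKM in Sham. For both the groups overlapped, with log2 differences of 0.08 ± 0.25 and -0.12 ± 0.31, and that of Itga3 was above 0 on the FPKM scale (0.07). Itgb4, the partner of alpha 6 in hemidesmosomes, was low, with 0.38 and 0.33 FPKM in MI and 0.11 and 0.20 FPKM in Sham (0.94 ± 0.39; edgeR adjusted p = 0.452).

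Itga9 and Itga4 form a subgroup of alpha chains whose ligands include fibronectin and the adhesion molecule VCAM1. Itga9 had 11.4 and 8.51 FPKM in MI and 4.63 and 7.88 FPKM in Sham, and Itga4 had 0.24 and 0.22 FPKM in MI and 0.11 and 0.19 FPKM in Sham. Their log2 differences were 0.46 ± 0.24 and 0.45 ± 0.34 (edgeR adjusted p = 0.524 and 0.647), with Sham replicate 2 close to the MI libraries for both.

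Leukocyte integrins did not separate the groups. Itgb2, the common beta chain of leukocytes, had 3.89 and 2.32 FPKM in MI and 2.91 and 2.10 FPKM in Sham (0.06 ± 0.32; edgeR adjusted p = 0.957). The 6 pan-leukocyte markers summed to 49.6 and 27.0 FPKM in MI and 25.02 and 25.3 FPKM in Sham. The 8 macrophage markers summed to 421 and 219 FPKM in MI and 166 and 203 FPKM in Sham, with log2 differences above 0 for all 8 (median 0.44) and no overlap for 4 of them (background 24.9%). Itgam, the alpha chain of neutrophils and macrophages, had 2.44 and 1.10 FPKM in MI and 3.88 and 0.63 FPKM in Sham, with the highest value in the library of highest neutrophil markers. Its value is uncertain, since 3450 of its 5024 exon bases are shared with Gm49368 on the same strand. Gm49368 had 143 and 485 counts in MI and 1 and 226 in Sham, and the 2 genes together had 1122 and 946 in MI and 1538 and 454 in Sham. Itgal, Itgax and Itgb7 had at most 0.55 FPKM in any library and log2 differences of 0.36 ± 0.45, 0.38 ± 0.90 and 1.12 ± 0.80. Itgae, the chain of tissue-resident T cells, had 8 and 0 counts in MI and 0 and 12 in Sham, at or under the floor.

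**Figure D3:**
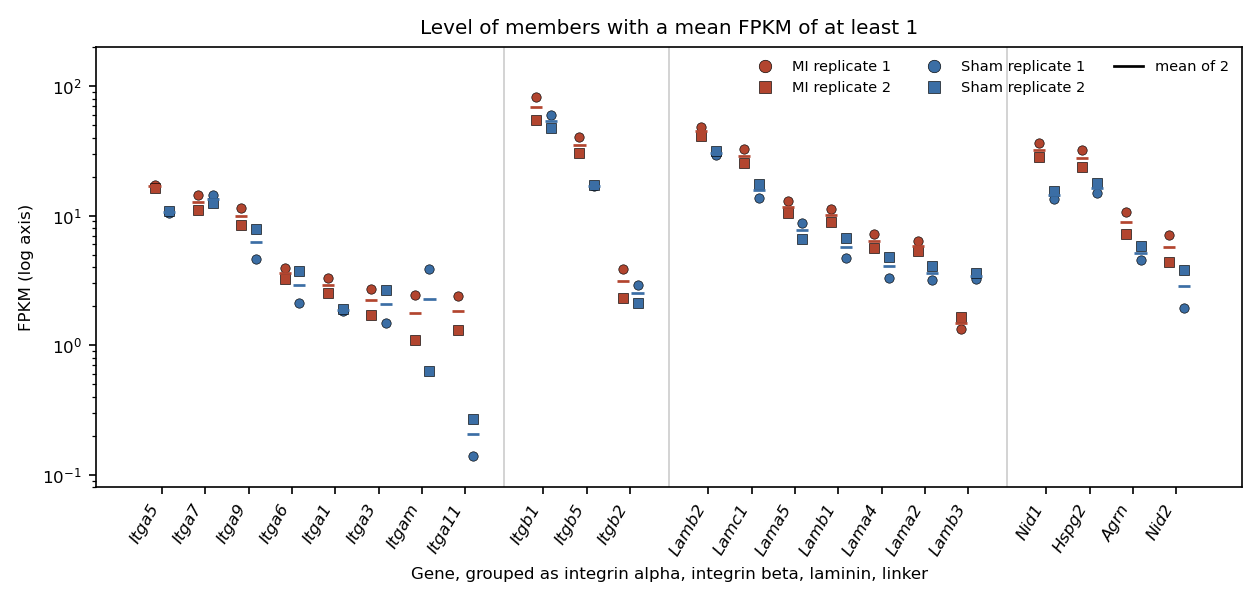
FPKM (vertical log axis) of the 22 members with a mean of at least 1 FPKM, by gene and ordered by level within each class, with circles for replicate 1, squares for replicate 2 and bars for the mean of 2 libraries. The MI points lie above the Sham points for Itgb5, Nid1, Hspg2, Lamc1 and Lamb2, overlap them for Itgb1, Itga7 and Itgb2, and lie below them for Lamb3.

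The laminin chains of muscle and vessel basement membranes stood higher in MI, each by less than 2-fold. Lamc1 (ENSMUSG00000026478, chromosome 1, 153218922 to 153332786), the gamma chain of nearly all heart laminins, had 32.5 and 25.5 FPKM in the MI libraries and 13.7 and 17.6 FPKM in the Sham libraries, a log2 difference of 0.67 ± 0.15 (edgeR adjusted p = 0.305, DESeq2 adjusted p = 0.0154). The groups did not overlap. Lamb1 had 11.3 and 8.94 FPKM in MI and 4.67 and 6.75 FPKM in Sham (0.61 ± 0.18), and Lamb2, the more abundant beta chain, had 48.2 and 41.2 FPKM in MI and 29.2 and 31.7 FPKM in Sham (0.33 ± 0.12). Neither beta chain overlapped between groups. Of the alpha chains, Lama2, the chain of muscle laminin whose loss causes a muscular dystrophy, had 6.34 and 5.36 FPKM in MI and 3.18 and 4.06 FPKM in Sham (0.48 ± 0.13). Lama4, of vessels and heart muscle, had 7.19 and 5.64 FPKM in MI and 3.30 and 4.79 FPKM in Sham (0.45 ± 0.18), and Lama5, the most abundant alpha chain, had 12.9 and 10.5 FPKM in MI and 8.83 and 6.65 FPKM in Sham (0.36 ± 0.22). On the TMM scale Lama5 had 141 and 128 CPM in MI and 125 and 84.6 CPM in Sham, so MI replicate 2 and Sham replicate 1 were close. The edgeR adjusted p of these 5 chains lay between 0.344 and 0.573.

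Lamb3 and Lama3, chains of the epithelial laminin that anchors skin and airway lining, differed in opposite directions. Lamb3 (ENSMUSG00000026639, chromosome 1, 193207699 to 193343878) had 1.32 and 1.65 FPKM in the MI libraries and 3.23 and 3.62 FPKM in the Sham libraries. It was the only member lower in MI at an unadjusted p under 0.05, with the 2 Sham libraries at 26.5 and 26.7 CPM and the MI libraries at 8.32 and 11.7 CPM. The log2 difference was -1.41 ± 0.21 (edgeR adjusted p = 0.225, DESeq2 adjusted p = 1.51e-05). MI replicate 1, the library with lung epithelial transcripts, had the lowest Lamb3 value. The annotated span of Lamb3 also encloses G0s2 and Hsd11b1 on the opposite strand, with 0 exon bases shared. G0s2, an inhibitor of fat breakdown, had 21.6 and 20.0 FPKM in MI and 33.1 and 13.9 FPKM in Sham, so its groups overlapped where those of Lamb3 did not. On the same strand as Lamb3 the span holds Gm37691, also with 0 exon bases shared, at 1.26 and 1.25 FPKM in MI and 2.15 and 1.31 FPKM in Sham, where both Sham values were the higher ones. Lama3 had 0.72 and 0.43 FPKM in MI and 0.25 and 0.20 FPKM in Sham, a log2 difference of 1.09 ± 0.33 (edgeR adjusted p = 0.353), with the higher value in MI replicate 1. Lamc3 had at most 0.21 FPKM, and Lama1 was detected at 4 counts in MI replicate 1 and 0 in the other libraries.

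All 4 linkers stood higher in both MI libraries than in either Sham library. Nid1 (ENSMUSG00000005397, chromosome 13, 13437551 to 13512269) encodes nidogen, which joins the laminin gamma chain to collagen IV. It had 36.3 and 28.1 FPKM in the MI libraries and 13.4 and 15.6 FPKM in the Sham libraries. The groups did not overlap, and the gap between them was wider than the gap between replicates of either group. The log2 difference was 0.93 ± 0.14 (edgeR adjusted p = 0.225, DESeq2 adjusted p = 1.6e-05). Nid2 had 7.11 and 4.41 FPKM in MI and 1.92 and 3.81 FPKM in Sham (0.79 ± 0.34; edgeR adjusted p = 0.463). Nid2 shares 437 exon bases with Rtraf on the opposite strand, at 28.3 to 30.9 FPKM in the 4 libraries, and whether the counting used strand is not given in the sources used here, so its level is uncertain. Hspg2, perlecan, the heparan sulfate proteoglycan of vessel walls, had 32.0 and 23.7 FPKM in MI and 14.9 and 17.7 FPKM in Sham (0.55 ± 0.15; edgeR adjusted p = 0.344). Agrn, the proteoglycan that links laminin to dystroglycan, had 10.7 and 7.20 FPKM in MI and 4.52 and 5.83 FPKM in Sham (0.56 ± 0.19; edgeR adjusted p = 0.379).

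Shares of a family's summed FPKM compare chains inside a library and do not depend on how libraries are scaled. Among the 8 beta chains, Itgb5 made up 31.3% and 33.9% in the MI libraries and 21.0% and 25.3% in the Sham libraries, while Itgb1 made up 63.7% and 61.5% in MI and 73.8% and 69.8% in Sham. The 2 groups did not overlap for either chain. These 2 chains held most of the sum, so a larger share of one goes with a smaller share of the other. The FPKM of Itgb1 itself overlapped between groups, at 82.0 and 54.7 in MI and 59.5 and 47.2 in Sham. Among the 17 alpha chains, Itga7 made up 23.0% and 23.3% in MI and 35.8% and 28.3% in Sham, and Itga5 made up 27.7% and 34.0% in MI and 26.1% and 24.2% in Sham. The ratio of Itga5 to Itga7 was 1.21 and 1.46 in MI and 0.729 and 0.854 in Sham, so the fibronectin receptor chain was the more abundant in both MI libraries and the muscle laminin receptor chain in both Sham libraries. Itga11 made up 3.82% and 2.72% in MI and 0.350% and 0.607% in Sham.

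The laminin alpha chains kept nearly the same proportions in MI. Lama5, Lama4 and Lama2 made up 47.6%, 26.5% and 23.3% in MI replicate 1 and 47.8%, 25.7% and 24.5% in MI replicate 2. In Sham replicate 1 they made up 56.7%, 21.2% and 20.4%, and in Sham replicate 2 they made up 42.4%, 30.5% and 25.9%, on either side of both MI libraries. The Lamb3 share of the 3 beta chains was 2.17% and 3.19% in MI and 8.71% and 8.61% in Sham. The ratio of Nid1 to Lamc1 was 1.12 and 1.10 in MI and 0.976 and 0.885 in Sham, and that of Lamc1 to Lamb2 was 0.674 and 0.619 in MI and 0.469 and 0.556 in Sham. The ratio of Hspg2 to Lamc1 was 0.986 and 0.929 in MI and 1.09 and 1.01 in Sham. With 2 libraries a group, an exact 2-sided permutation test of such a ratio cannot give a p under 0.333, and none was run.

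**Figure D4:**
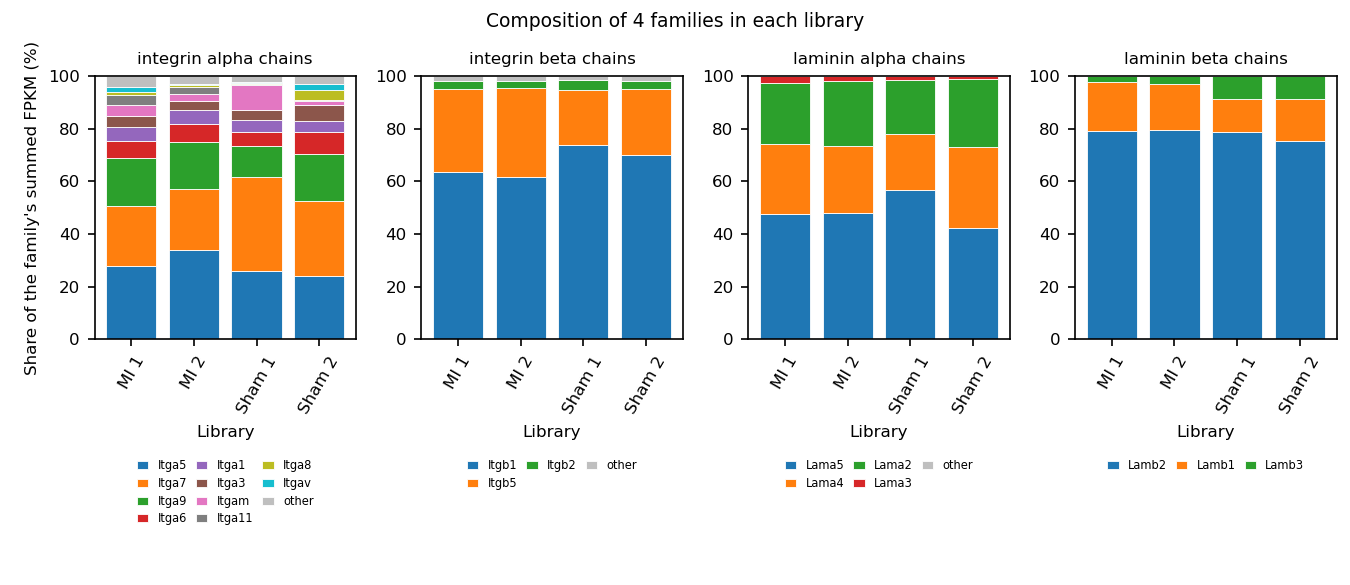
Share of the summed FPKM (vertical axis, %) of each chain within the integrin alpha, integrin beta, laminin alpha and laminin beta families, with 1 stacked bar per library and chains under 2% in every library pooled as other. Itgb5 takes a larger share and Itgb1 a smaller one in both MI libraries, and Lamb3 takes 2.17% and 3.19% in MI against 8.71% and 8.61% in Sham.

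Endothelial and mural cells make much of the heart's basement membrane, and most of their markers stood higher in MI. The groups did not overlap, with MI above, for 6 of 7 endothelial and 5 of 8 mural markers (background 24.9%), while Emcn (-0.25 ± 0.19), Abcc9 (-0.20 ± 0.12), Myh11 (-0.34 ± 0.39) and Cnn1 (-0.37 ± 0.68) had log2 differences below 0. The 7 endothelial markers summed to 186 and 149 FPKM in MI and 100.5 and 116 FPKM in Sham, and the 8 mural cell markers to 195 and 176 FPKM in MI and 129 and 121 FPKM in Sham, of which Rgs5 alone gave 130 and 117 FPKM in MI and 84.4 and 71.7 FPKM in Sham. The ratio of Nid1 to the endothelial marker Pecam1 was 1.04 and 0.945 in MI and 0.603 and 0.606 in Sham, and that of Lamc1 to Pecam1 was 0.935 and 0.857 in MI and 0.618 and 0.685 in Sham. The ratio of Nid1 to the fibroblast product Dcn lay closer between groups, at 0.391 and 0.303 in MI and 0.301 and 0.269 in Sham.

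Genes that work with the members were looked at in 4 lists, read against the same background of 7.12% higher and 4.51% lower. Of 25 intracellular adaptors of integrins, 24 were tested; 5 were higher and 0 lower in MI at an unadjusted p under 0.05, DESeq2 called 0, and the median log2 difference was 0.24. Tln1, talin, which switches integrins on, had 0.43 ± 0.13, Vcl, vinculin, had 0.49 ± 0.14 and Parva, alpha-parvin, had 0.51 ± 0.15, against -0.26 ± 0.14 for Itgb1bp2, melusin, the muscle partner of beta 1 and the most abundant of the list. Tns1, tensin, had 0.22 ± 0.15. Without MI replicate 1, 0 adaptors were higher at an unadjusted p (background 2.23%). Of 16 other ligands of integrins, 14 were tested, 6 were higher and 0 lower, DESeq2 called 4 higher, and the median was 0.31 (0.010 without MI replicate 1). Postn, periostin, had 2.96 ± 0.35 (edgeR adjusted p = 0.188), Fbn1, fibrillin, had 1.27 ± 0.25, Tgfb1 had 0.64 ± 0.14 and Mfge8, an RGD protein of vessels, had 0.54 ± 0.15. Fn1 and Spp1 are named after their values were seen. Fn1, fibronectin, the ligand of Itga5, had 30.4 and 10.9 FPKM in MI and 3.15 and 4.75 FPKM in Sham, a log2 difference of 2.14 ± 0.48 (edgeR adjusted p = 0.305, DESeq2 adjusted p = 7.41e-05). Spp1, osteopontin, overlapped between groups at -1.75 ± 1.55, with its highest value in Sham replicate 1.

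Of 21 other basement membrane genes, all were tested, with 7 higher and 0 lower at an unadjusted p (2 and 0 in DESeq2) and a median of 0.42. Sparc, a collagen-binding protein, had 1.44 ± 0.32, Smoc2 had 0.53 ± 0.12 and Papln had 0.93 ± 0.26. Col4a1, the most abundant collagen IV chain, had 0.34 ± 0.18 (edgeR adjusted p = 0.524). Col4a2, the next most abundant and named after its values were seen, had 0.55 ± 0.17 (edgeR adjusted p = 0.360). Without MI replicate 1, 1 of these genes was higher (background 2.23%). With each library left out in turn, the log2 difference of Sparc ranged over 0.996 to 1.79 and that of Papln over 0.71 to 1.14. Both were lowest without MI replicate 1. Smoc2 ranged over 0.47 to 0.60 and Col4a1 over 0.19 to 0.51. Of 14 other receptors for laminin and agrin and enzymes of their glycosylation, 13 were tested, 3 were higher and 1 lower (1 and 0 in DESeq2), with a median of 0.24. Dag1, dystroglycan, the other main laminin receptor of heart muscle, had 46.1 and 42.3 FPKM in MI and 37.6 and 32.0 FPKM in Sham, with a log2 difference of 0.12 ± 0.17 (-0.063 without Sham replicate 2). Bcam, a receptor for Lama5, had 0.06 ± 0.12. The syndecans went both ways, with Sdc1 at 1.23 ± 0.29 and Sdc4 at -1.04 ± 0.31 (edgeR adjusted p = 0.327 and 0.348), and Pomt2, which glycosylates dystroglycan, had 0.46 ± 0.17. Without MI replicate 1, 0 genes of this list were higher or lower (background 2.23% and 1.95%).

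Of the 14 members at an unadjusted p under 0.05, Itga11, Itgb5, Nid1 and Lamb3 also passed that threshold without any single library. Their log2 differences ranged over 2.52 to 3.36 for Itga11, 0.70 to 0.95 for Itgb5, 0.83 to 1.04 for Nid1 and -1.66 to -1.18 for Lamb3. None of these 4 had an adjusted p under 0.05 in those fits. By class, 5 laminin chains were higher at an unadjusted p with all libraries (background 7.12%). Their log2 differences without single libraries ranged over 0.38 to 0.58 for Lama2, 0.78 to 1.37 for Lama3 and 0.43 to 0.81 for Lamb1. Those of Lamb2 and Lamc1 ranged over 0.31 to 0.38 and 0.57 to 0.78. The lowest values came without MI replicate 1 for Lama3 and Lamb2, and without Sham replicate 1 for the others. Of the linkers, 3 were higher with all libraries (background 7.12%). Besides Nid1, their log2 differences ranged over 0.41 to 0.69 for Hspg2 and 0.35 to 0.77 for Agrn, both lowest without MI replicate 1. Of the 16 alpha chains tested, 4 were higher with all libraries (background 7.12%). Besides Itga11, their log2 differences without single libraries ranged over 0.32 to 0.53 for Itga1, 0.39 to 0.50 for Itga5 and 1.33 to 1.67 for Itga10. Leaving out 1 library moved several log2 differences by over 1.5 times. Without MI replicate 1, Agrn was at 0.35 and Nid2 at 0.51, and without MI replicate 2, Itga7 was at -0.20 and Itgb6 at -0.46. Without Sham replicate 1, Nid2 was at 0.43, Itgb3 at 1.68, Lama5 at 0.67, Lama4 at 0.27, Itga9 at 0.19, Itga4 at 0.16 and Itga7 at -0.13. Without Sham replicate 2, Nid2 was at 1.27, Itgb3 at 0.43, Lama5 at 0.11, Itga9 at 0.80, Itga4 at 0.81 and Itga7 at -0.47.

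**Figure D5:**
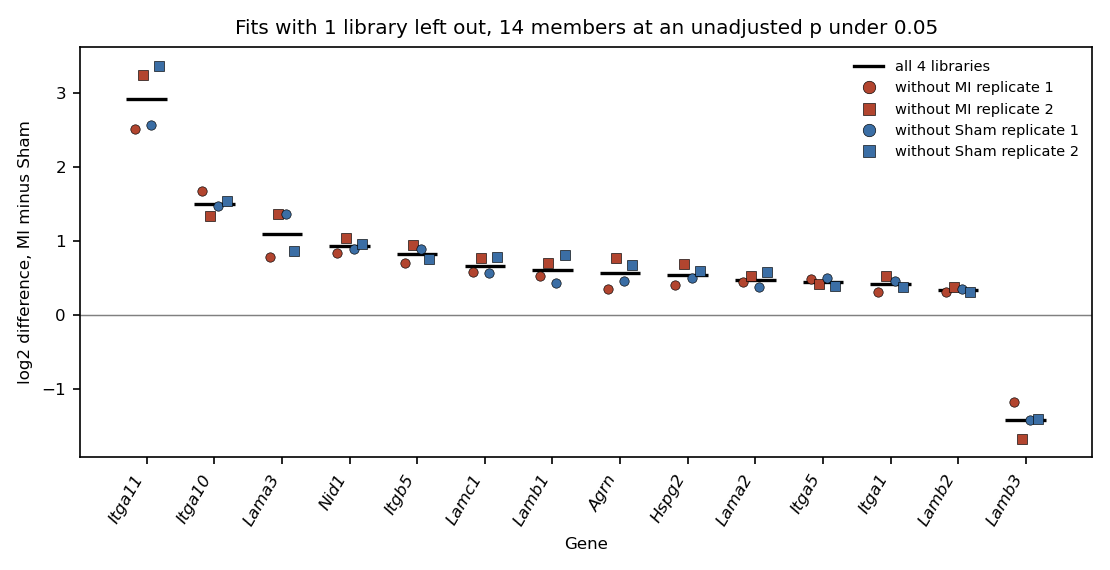
Log2 difference between MI and Sham (vertical axis) for the 14 members at an unadjusted p under 0.05, with all 4 libraries (black bars) and with each library left out in turn (points). Every point keeps the sign of its bar, and Itga11 ranges over 2.52 to 3.36.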

How the data were processed

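Poly(A) RNA of mouse heart at day 28 was sequenced as strand-marked paired-end libraries, 2 MI and 2 Sham, per the labels' protocols. Per gene, the deposited table holds counts (whole numbers) and FPKM, which the authors scaled by gene length and depth. Per the submitters' processing notes, HISAT2 2.0.4, StringTie 1.3.4d, cutadapt 1.9 and UMI-tools were used, with no role or order stated. The build and the strand setting are not given in the sources. GENCODE M21 (GRCm38) holds 99.5% of the gene identifiers, with the same start and end for 37 of the 39 members. Low counts pile up at multiples of 4 (1148 to 1174 genes at 4 and 284 to 331 at 3 per library), so the floor of 12 counts stands for about 3 fragments. Floors cover counting error only. No column lacked a labelled sample.

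Low genes were removed by edgeR's filterByExpr (at settings of 10 and 15 for a library and in total), and the rest scaled by TMM and tested with edgeR 4.0.16 (R 4.3.3), 2-sided quasi-likelihood, group as the only term, Benjamini-Hochberg adjustment over all 18475 genes at 0.05. CPM are TMM-scaled. Standard errors were derived from the F statistic. DESeq2 1.42.0, limma 3.58.1 on log2(FPKM + 1) and on log2(FPKM + 0.1), RLE scaling, no filter, removal of mitochondrial transcripts, counts divided by 4, a replicate block and fits without each library were alternatives. The fit was tested on simulated counts for 17955 genes of this comparison: it called 37% of 100 genes with a log2 change of 2 and 100% of 100 genes with one of 4.

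The members and gene lists were chosen with earlier results of these data known. Named were all members (singly from a mean of 1 FPKM or an unadjusted p under 0.05; others by range or values), and, of each partner list, the 2 genes of highest mean FPKM and the 3 of smallest p. Ratios between genes were chosen after their values were seen. Promoter sequences are RefSeq's (GRCm38.p6).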

Additional observations from a re-analysis of the deposited data

How the results depend on the processing

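The log2 differences of 26 of the 37 members kept their sign under the 12 alternative settings named with the methods, among them the 14 at an unadjusted p under 0.05. In DESeq2 635 genes were called, 6 of them members, against 0 and 0 in edgeR and in both limma fits. Without single libraries 0 to 14 genes were called (14 without Sham replicate 1, 5 without Sham replicate 2) and 0 members; the genes at an unadjusted p under 0.05 numbered 810 to 3126, against 2150 with all libraries, the members higher 4 to 16, against 13, and the members lower 1 to 3, against 1. The labels do not say whether the replicate numbers pair the samples. Deviations from the group means correlated at -0.056 between same-numbered libraries. With a single contrast inside each group, that value cannot decide whether they pair. With a replicate block 0 genes were called and 10 members had an unadjusted p under 0.05, of which only Lamb3 was lower in MI. Over all 18475 genes tested in that fit, 1002 were higher and 552 lower at that threshold. Of the genes at an unadjusted p, 61.2% were higher with TMM and 86.9% in limma on log2(FPKM + 1), where the median over every gene tested was 0.092 higher (0.19 with a pseudocount of 0.1); the median of the members was 0.33 and 0.60 there.

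Signs turned for members with wide spread or small differences. Itga2 was -0.16 with the replicate block, Itga3 was 0.073 and 0.11 in limma with pseudocounts of 1 and 0.1, and Itgam was 0.035 with a pseudocount of 0.1. With each library left out in turn, the log2 differences ranged from -1.16 to 0.82 for Itga2, -0.21 to 0.94 for Itga2b, -0.42 to 0.27 for Itga3, -0.21 to 0.46 for Itga6, -1.61 to 1.39 for Itga8, -0.068 to 0.71 for Itgal, -1.45 to 1.33 for Itgam, -1.89 to 2.36 for Itgav, -1.26 to 1.13 for Itgax, -0.11 to 0.38 for Itgb1, -0.25 to 0.40 for Itgb2 and -0.063 to 0.32 for Dag1. With the counts of Gm49368 added, an alternative chosen after seeing the data, Itgam was -0.28. The cause was not tested. On FPKM, 21 members did not overlap between groups, 20 of them higher in MI and 1 lower. On CPM, 23 did not overlap, 20 of them higher and 3 lower (background 24.9% and 21.9%). A share over all genes was not computed on FPKM, so the FPKM counts have no background to be read against. Depth limits Itgae and Lama1, at or under the floor.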

Other observations

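Npnt, nephronectin, a ligand of the Itga8 receptor, had the same order of libraries as Itgav, with 1.41 and 0.11 FPKM in the MI libraries and 0.10 and 1.06 FPKM in the Sham libraries. MI replicate 1 and Sham replicate 2 were both high, with gaps of over 5-fold inside both groups, for 22 of the 18475 genes tested (0.119%). Npnt was chosen after its values were seen.

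The ratio of Itga11 to Postn, both as FPKM, was 0.0381 and 0.0397 in the MI libraries and 0.0351 and 0.0419 in the Sham libraries, while Postn itself was at 62.7 and 32.7 FPKM in MI and 3.99 and 6.44 FPKM in Sham. The Sham libraries lay on either side of both MI libraries. Against Col1a1 the ratio was 0.0272 and 0.0406 in MI and 0.0170 and 0.0223 in Sham. The ratio of Itga10 to Itga11 was 0.234 and 0.485 in MI and 1.21 and 0.741 in Sham, so Itga11 was the more abundant of the 2 in both MI libraries and in Sham replicate 2. These ratios were chosen after their values were seen and have no test.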
